A study of Mus musculus with 6 samples.

Results

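The CCT chaperonin, also called TRiC, is a barrel-shaped folding machine of the cytosol built from 8 different subunits. The genes of these subunits are Tcp1, Cct2, Cct3, Cct4, Cct5, Cct6a, Cct7 and Cct8. They were taken by name from GENCODE M21 through the Ensembl identifiers of the table, and all 8 were among its 12149 genes. Messenger RNA of whole single mouse blastocysts (C57BL/6, embryonic day 3.5) was sequenced after small RNAs from sperm had been injected into the zygotes. The donors of these RNAs were males with stress-induced depression for the Dep group (Dep 1, 2 and 3) and normal males for the Ctl group (Ctl 1, 2 and 3). Zygotes of both groups were thus injected, at 2 ng/µl, and were grown for about 96 h. Whether embryos shared parents, injection sessions or RNA donors is not stated, so p-values measure the spread between these 6 embryos, which may be in part technical.

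CCT works by enclosing newly made proteins between its stacked rings and closing a built-in lid as it hydrolyses ATP. Each ring carries 1 copy of each subunit, so the complex needs its 8 products in equal number. Actin and tubulin are its best known clients, and regulators of the cell cycle such as Cdc20 also depend on it. In the blastocyst, actin and tubulin serve cleavage divisions and the shaping of the trophectoderm, the outer epithelium that encloses the inner cell mass.

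The whole reads behind the values summed to between 16543356 (Ctl 1) and 21548220 (Ctl 2) per library, counting only listed genes. In Dep 1, 691 genes of the table had no read, a number that was 23 or lower in Dep 2 and Dep 3 and 106 or lower in the Ctl libraries. The defining markers of the blastocyst were measured: 8 of 8 of trophectoderm, 7 of 7 of epiblast and 5 of 5 of primitive endoderm. Of primitive endoderm, Gata4, Sox17 and Sox7 were at 0 reads in Dep 1, and Gata4 was at 0 in Ctl 3. Of epiblast, Fgf4 was at 0 in Dep 1. Of cumulus and granulosa cells 1 of 6 markers was listed (Amhr2), and of blood and fibroblasts 0 of 3 each. Reads of a whole embryo cannot tell fewer cells of a type from less RNA per cell.

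In GRCm38 coordinates the genes lie on 8 different chromosomes. Tcp1 (ENSMUSG00000068039) spans chr17:12915701-12925067, Cct2 (ENSMUSG00000034024) chr10:117051001-117063814 and Cct3 (ENSMUSG00000001416) chr3:88297116-88321767. Cct4 (ENSMUSG00000007739) spans chr11:22990519-23003780, Cct5 (ENSMUSG00000022234) chr15:31590800-31601804 and Cct6a (ENSMUSG00000029447) chr5:129786998-129846371. Cct7 (ENSMUSG00000030007) spans chr6:85451514-85468475 and Cct8 (ENSMUSG00000025613) chr16:87483326-87495873. Of these, 7 are annotated as protein-coding. Cct6a is annotated there as a processed transcript, whereas RefSeq lists it as protein-coding.

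Promoter windows from 250 bases before to 50 bases after the start, taken from RefSeq on GRCm38.p6, matched 7 of the 8 genes in 9 windows. Cct4 had no entry. All sequences run 5′ to 3′ on the strand of the gene. Those of Cct7 (chr6:85451255-85451554, plus strand) and Cct2 (first window, chr10:117063803-117064102, minus strand) are shown because these were the subunits with the widest and the narrowest range over the embryos. That of Tcp1 (chr17:12916079-12916378, plus strand) is shown because it, like that of Cct7, holds all of the motifs marked. Capitals mark CCAAT (or ATTGG on the other strand), GGGCGG (or CCGCCC), the core of a GC box, and CCGGAA (or TTCCGG), the core that ETS factors bind.
Cct7: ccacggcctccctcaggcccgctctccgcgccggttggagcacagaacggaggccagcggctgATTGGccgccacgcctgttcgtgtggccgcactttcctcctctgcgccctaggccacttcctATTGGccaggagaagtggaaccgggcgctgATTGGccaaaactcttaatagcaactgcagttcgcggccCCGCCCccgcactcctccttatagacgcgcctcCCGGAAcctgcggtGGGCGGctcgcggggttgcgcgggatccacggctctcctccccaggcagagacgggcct
Cct2: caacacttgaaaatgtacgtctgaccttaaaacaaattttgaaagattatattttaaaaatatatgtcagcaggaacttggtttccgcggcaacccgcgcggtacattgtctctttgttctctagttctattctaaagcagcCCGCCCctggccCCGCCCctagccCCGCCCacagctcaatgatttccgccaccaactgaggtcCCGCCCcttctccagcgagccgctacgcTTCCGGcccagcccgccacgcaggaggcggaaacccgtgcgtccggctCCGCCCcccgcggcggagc
Tcp1: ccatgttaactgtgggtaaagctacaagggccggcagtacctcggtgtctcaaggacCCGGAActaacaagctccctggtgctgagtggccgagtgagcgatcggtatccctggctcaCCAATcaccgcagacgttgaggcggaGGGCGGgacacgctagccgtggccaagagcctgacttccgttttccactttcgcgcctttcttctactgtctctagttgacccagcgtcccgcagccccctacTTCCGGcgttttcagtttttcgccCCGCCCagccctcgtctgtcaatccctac
No capitals of different motifs overlapped in these windows. The GC box core was found in 8 of the 9 windows, and in 35.7% of all 32851 windows of this length. The ETS core was found in 5 of 9 (14.9% of all windows) and CCAAT in 4 of 9 (37.4%). The spaced pair GAANNTTC, as in sites of heat shock factors and read the same on both strands, was found in 1 of 9, the second window of Cct2 (7.86%). TATAAA (or TTTATA) was found in 0 of 9 (13.6%). The GC content of the 9 windows ran from 47.3% (first window of Cct5) to 67.7% (Cct7). All but that window of Cct5 lay above the median of all windows, 52.7%. The part of GC content in these matches was not tested. A match describes these letters only.

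The mRNA of the 8 subunits varied largely together from embryo to embryo, Cct2 least so. That variation was wider than the difference between the groups. Ctl 3 and Dep 3 were the lowest 2 of the 6 embryos for 8 of 8 subunits, an order that 11.0% of all genes showed. Dep 2 was the highest for 7 of 8, against 17.6% of all genes. Both held together for 7 of 8, against 3.40%. This order was read from the CCT values themselves, so the subunits were bound to show it more often than other genes. The shares over all genes are thus a description and carry no test. The order was not particular to CCT, since Ctl 3 and Dep 3 were also the lowest 2 for 14 of 14 genes of the proteasome core. The mean log2 level of the 8, on the scale of log2(normalized count + 1), was 13.12, 13.53 and 12.43 in Dep 1, 2 and 3, and 12.91, 13.01 and 12.22 in Ctl 1, 2 and 3. It averaged 13.02 ± 0.56 in Dep and 12.71 ± 0.43 in Ctl (SD, n = 3 each), and the highest embryo stood 2.47-fold above the lowest.

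As a share of reads in listed genes, the 8 genes took 0.348%, 0.536% and 0.270% in Dep 1, 2 and 3, and 0.316%, 0.372% and 0.221% in Ctl 1, 2 and 3. The groups overlapped, with both the highest value (Dep 2) and the second lowest (Dep 3) in Dep. Within same-numbered pairs, a pairing that the labels do not state, Dep was above Ctl in 3 of 3. This held both in this share and in the mean log2 level. Summed counts of the 8 trophectoderm markers were 102683, 40509 and 43180.3 in Dep 1, 2 and 3, and 71690, 62280 and 46734 in Ctl 1, 2 and 3. Krt8 and Krt18 made up most of each of these sums. The mean log2 level of the 8 markers was 11.89, 10.66 and 11.08 in Dep 1, 2 and 3, and 11.18, 11.21 and 10.76 in Ctl 1, 2 and 3. Summed counts of the 7 epiblast markers ran between 6311 and 14241 in Dep and between 7407 and 10762 in Ctl, mostly from Nanog and Pou5f1. The mean log2 level of the 7 was 7.36, 9.92 and 9.66 in Dep 1, 2 and 3. In Ctl 1, 2 and 3 it was 9.34, 9.94 and 9.49. Tdgf1 had 17.0 normalized counts in Dep 1, beside 880.5 in Ctl 1, its next lowest embryo. Pou5f1 was lowest in Ctl 3 and Utf1 in Ctl 1. Summed counts of the 5 primitive endoderm markers ran between 3141 and 9311 in Dep and between 6282 and 7194 in Ctl. Gata6 made up most of each of these sums. The mean log2 level of the 5 was 3.55, 9.52 and 9.39 in Dep 1, 2 and 3. In Ctl 1, 2 and 3 it was 8.03, 9.06 and 4.48. In Ctl 3, Sox17, Sox7 and Pdgfra had 0.88, 9.7 and 41.5 normalized counts. The part of the markers in the CCT values was not tested.

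**Figure D1:**
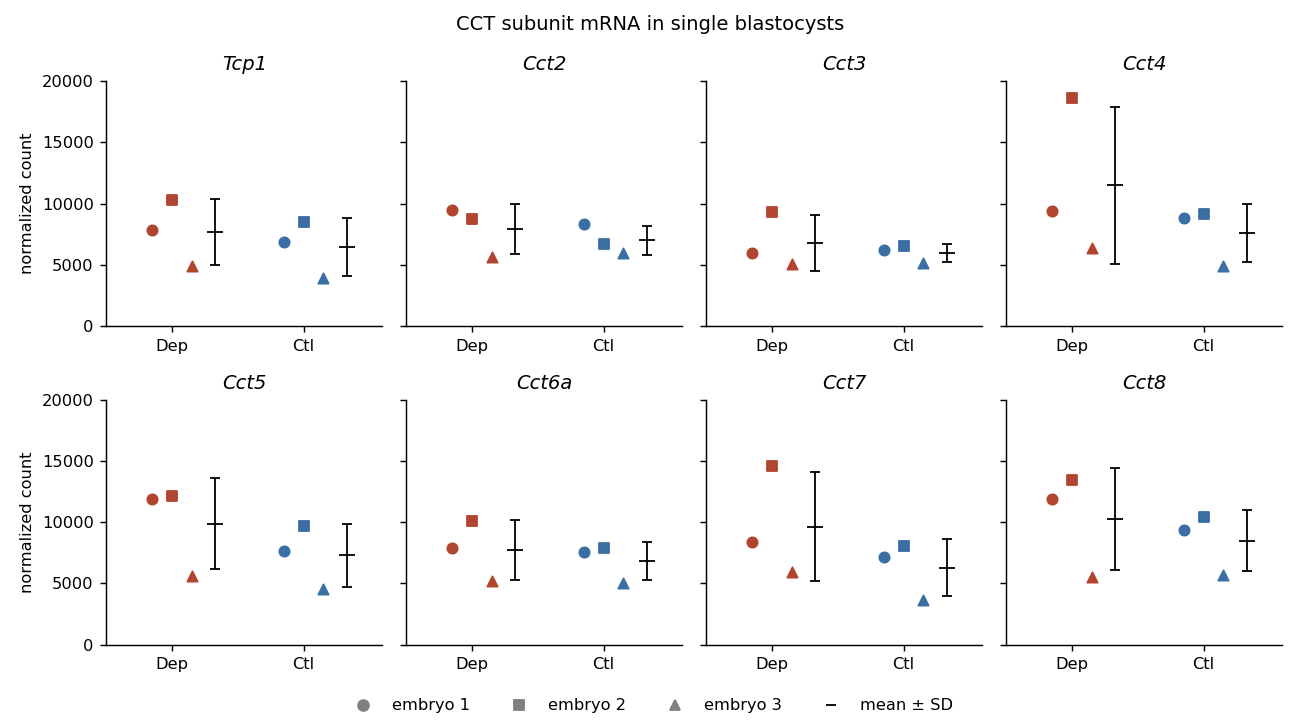
Normalized counts of the 8 CCT subunits (y axis) in Dep (red) and Ctl (blue) embryos; symbols give the embryo number and bars the mean ± SD of 3 embryos. Embryo 3 of each group (triangles) is low in every panel, and Dep 2 reaches 18642 for Cct4.

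Tcp1, Cct2, Cct4 and Cct5 encode the side of the ring that is known, from work in yeast, to bind ATP more tightly and to drive the cycle. Tcp1, the alpha subunit that was first described as a product of the mouse t complex, had 7803, 10289.9 and 4876 normalized counts in Dep 1, 2 and 3, and 6875, 8531 and 3907 in Ctl 1, 2 and 3. The groups overlapped, and each Dep embryo lay above the Ctl embryo of the same number. Cct2, the beta subunit, had 9483, 8744 and 5611 in Dep, and 8315, 6719 and 5984 in Ctl. It was the 1 subunit whose highest value was in Dep 1, and its highest embryo was 1.69-fold above its lowest. Cct4, the delta subunit, had 9403, 18642 and 6376 in Dep, and 8784, 9138 and 4878 in Ctl. Dep 2 stood alone at 18642, while Dep 1 was close to Ctl 1 and Ctl 2. Cct5, the epsilon subunit, had 11888, 12115 and 5632 in Dep, and 7648, 9636 and 4538 in Ctl. Here Dep 1 and Dep 2 both lay above every Ctl embryo, and Dep 3 lay below Ctl 1 and Ctl 2.

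Cct3, Cct6a, Cct7 and Cct8 encode the side known from the same work to bind ATP more weakly. Cct3, the gamma subunit, had 5945, 9324 and 5046 in Dep, and 6230.1, 6528 and 5171 in Ctl. Dep 1 and Dep 3 were each below the Ctl embryo of their number, so 1 of 3 same-numbered pairs was higher in Dep. Cct6a, the zeta subunit, had 7883, 10099 and 5157 in Dep, and 7537, 7905 and 4996 in Ctl. Apart from Dep 2, its Dep embryos lay close to the Ctl embryos of the same number. Cct7, the eta subunit, had 8371, 14560 and 5937 in Dep, and 7159, 8047 and 3606 in Ctl. Its range was the widest of the 8, at 4.04-fold from Ctl 3 to Dep 2. Cct8, the theta subunit, had 11895, 13399 and 5546 in Dep, and 9377, 10381 and 5672 in Ctl. Its lowest embryo was Dep 3 and not Ctl 3.

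None of the 8 subunits passed the test of Dep against Ctl. The test was limma on log2(normalized count + 1) over all 12149 genes, with Benjamini-Hochberg adjustment, and adjusted p was 0.9997 for each subunit. It called 0 of 12149 genes at an adjusted p of 0.05 (0.00%), and 225 had an unadjusted p under 0.05 (1.85%), none of them a CCT subunit. On whole reads recovered from the table, edgeR called 0 genes (0.00%), and 211 were under 0.05 unadjusted (1.74%). DESeq2 on the same reads called 1 (0.00823%), Ly6a, a surface protein gene outside the chaperonin that is named after its value was seen, and 279 were under 0.05 unadjusted (2.30%). The groups did not overlap for 0 of 8 subunits, and for 6.90% of all genes.

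The log2 folds of the subunits were all above 0. The largest were 0.60 ± 0.40 for Cct7, 0.50 ± 0.41 for Cct4 and 0.43 ± 0.38 for Cct5 (SE), and the smallest 0.14 ± 0.29 for Cct3. With an embryo left out, the fold of Cct7 ran from 0.24 (without Ctl 3) to 0.90 (without Dep 3). That of Cct4 ran from 0.08 (without Dep 2) to 0.86 (without Dep 3), and that of Cct5 from 0.12 (without Ctl 3) to 0.79 (without Dep 3). In means ± SD (n = 3 each), Cct7 had 9623 ± 4446 normalized counts in Dep and 6271 ± 2350 in Ctl. Cct3 had 6772 ± 2255 in Dep and 5976 ± 713 in Ctl. The mean log2 level was higher in Dep for 8 of 8 subunits, as it was for 48.2% of all genes. The 8 varied largely together, so their shared direction does not count as 8 independent observations. The median log2 fold of the 8 was 0.24, beside -0.02 for all genes.

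That median moved with single embryos. It was 0.04 without Dep 2 and 0.04 without Ctl 3, against 0.59 without Dep 3 and 0.45 without Ctl 2. Without Dep 1, the library with most genes at 0, it was 0.21. Without Ctl 3 the log2 folds of Tcp1, Cct6a and Cct8 were -0.066, -0.055 and -0.040. Without Dep 2 those of Cct3, Cct6a and Cct8 were -0.12, -0.067 and -0.014.

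Each Dep embryo was above the Ctl embryo of its number for 5 of 8 subunits (Tcp1, Cct4, Cct5, Cct6a and Cct7), against 12.6% of all genes. With the replicate number as a block, 1 of 8 subunits had an unadjusted limma p under 0.05, Cct7, at 0.0194 unadjusted and 0.941 adjusted over all genes. In that fit the log2 folds of the subunits were unchanged, and their standard errors ran from 0.18 (Tcp1) to 0.23 (Cct4). That fit called 0 of 12149 genes (0.00%), and 420 were under 0.05 unadjusted (3.46%).

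Levels of different genes can be compared only per length, here as FPKM (reads per kilobase of gene, scaled to the reads in listed genes). With the union of annotated exons as length, Cct5 was highest and Cct3 lowest, at 167 ± 55.9 and 54.5 ± 13.5 FPKM (SD over all 6 embryos), a ratio of 3.06. The order was Cct5, Cct8, Cct2, Cct4, Cct6a, Tcp1, Cct7 and Cct3. This length runs from 2557 bases for Cct2 to 6778 for Cct7, and it includes transcripts with retained introns. With the longest transcript that is neither a retained intron nor a decay target, a length chosen after seeing the data, the genes span 1853 to 2484 bases. The ratio of highest to lowest was then 1.597, so the spread between the subunits depends on the length used.

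On the spliced length, the order from high to low was Cct5 (249 ± 83.5 FPKM), Cct8 (211 ± 66.1), Cct4 (208 ± 106), Cct2 (206 ± 30.3), Cct7 (176 ± 81.8), Cct3 (176 ± 43.6), Cct6a (160 ± 39.5) and Tcp1 (156 ± 50.5), each with SD over 6 embryos. Within embryos, Cct5 was above Cct8 in 6 of 6, by 38.1 ± 25.2 FPKM (mean difference ± SD). The other neighbours in this order changed places in at least 1 embryo, and their mean differences were smaller than the SD of those differences. On the exon union, Cct5 was above Cct8 in 4 of 6 embryos, by 3.33 ± 13.9 FPKM, and among its neighbours Cct6a was above Tcp1 in 6 of 6, by 32.8 ± 5.47 FPKM. All 8 lay between the 94.8th and 96.8th percentile of the 11829 genes with a length, so the subunits are among the abundant mRNAs of the blastocyst. On the exon union they lay between the 89.7th and 97.0th percentile.

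The make-up of the 8 mRNAs differed between embryos but not in a way that separated the groups, with 1 exception. If all were equal, each would hold 12.5% of the summed FPKM. On the spliced length, Cct5 was the largest in Dep 1 (19.5%), Dep 3 (15.3%) and Ctl 2 (17.4%), Cct4 in Dep 2 (17.4%), and Cct2 in Ctl 1 (15.3%) and Ctl 3 (17.4%). The smallest were Cct3 in Dep 1 (9.15%), Cct6a in Dep 2 (9.55%) and Ctl 2 (10.8%), Tcp1 in Dep 3 (10.03%) and Ctl 1 (10.1%), and Cct7 in Ctl 3 (8.41%). The ratio of largest to smallest ran from 1.52 in Dep 3 to 2.13 in Dep 1 among Dep embryos, and from 1.51 in Ctl 1 to 2.07 in Ctl 3 among Ctl embryos.

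The exception was Cct6a, whose share on the exon union was 10.9%, 11.1% and 12.3% in Dep 1, 2 and 3, and 12.5%, 12.3% and 13.2% in Ctl 1, 2 and 3. The groups did not overlap, though Dep 3 (12.27%) and Ctl 2 (12.31%) nearly met. It averaged 11.4% ± 0.735 in Dep and 12.7% ± 0.449 in Ctl (SD, n = 3 each), a difference of -1.23 percentage points, and was also without overlap on the spliced length (9.97% ± 0.541 in Dep and 11.1% ± 0.425 in Ctl). Cct6a was singled out after its values were seen, its gene model is the one annotated as non-coding, and part of its exonic sequence is shared with Psph. The smallest p that a two-sided exact test of 3 against 3 embryos can give is 0.1. On the log2 level relative to the other 7 subunits, 1 of 8 subunits was without overlap, and relative to the mean of the 8, 4.21% of all genes were. Of the other subunits, all with overlapping groups, the largest differences in share on the exon union were 2.03 points for Cct4 and -1.86 points for Cct2, and on the spliced length 2.18 points for Cct7 and 1.89 points for Cct4. The share of Cct2, like that of Cct6a, was lower in Dep in 3 of 3 same-numbered pairs on either length. That of Cct3 was so on the spliced length only. The shares of an embryo divide a fixed total, so gains of some subunits entail losses of others. A share over all genes was not computed for these pair counts.

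**Figure D2:**
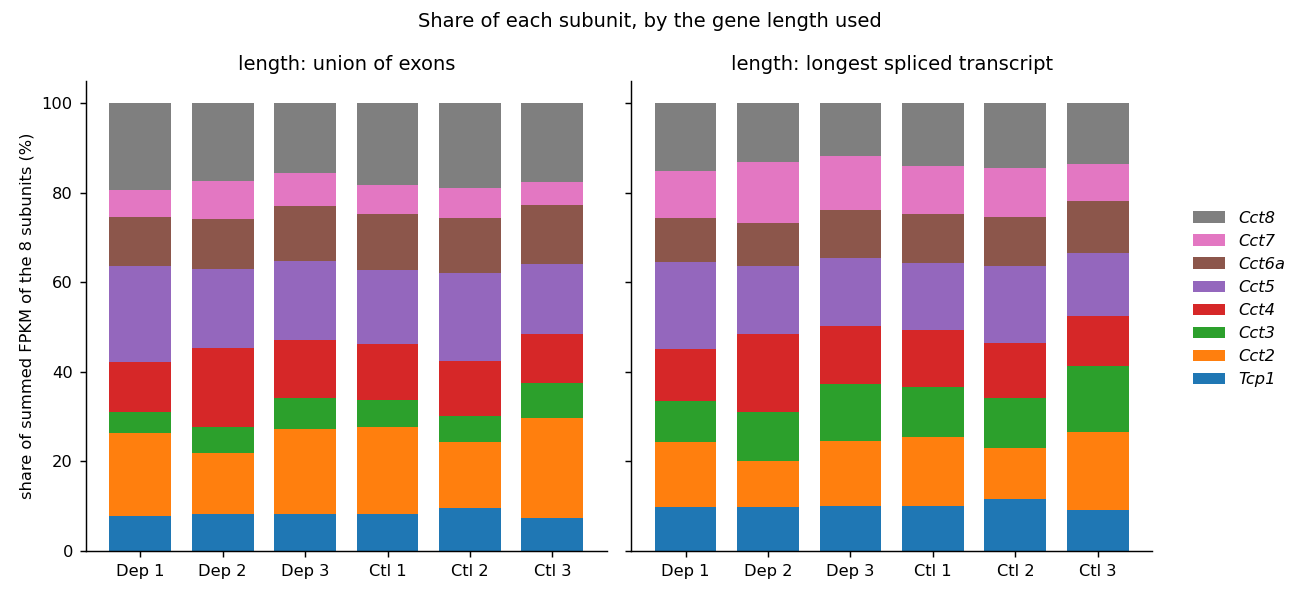
Share of each subunit in the summed FPKM of the 8 (y axis, percent) per embryo, with the exon union (left) and the longest spliced transcript (right) as gene length. Cct3 and Cct7 are thin bands on the left, at mean shares of 6.12% and 6.74%, and near the others on the right, at 11.7% and 11.1%.

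Relative to the other 7, 7 of 8 subunits varied less than they did in level, Cct2 being the exception (0.32 relative to the others and 0.31 in level). The SD of the log2 level over the 6 embryos had a median of 0.53 over the subunits, and that of the level relative to the other 7 a median of 0.23. Cct6a (0.12) and Tcp1 (0.13) kept closest to the rest, while Cct2 (0.32), Cct7 (0.27) and Cct3 (0.27) strayed most. Cct2 and Cct3 stood high relative to the others in Ctl 3, and Cct2 low in Dep 2. Cct4 and Cct7 did the reverse, standing high in Dep 2 and low in Ctl 3. In level, Cct7 (SD 0.66) varied more than 95.7% of the 441 genes within 1.5-fold of its mean count, and Cct4 (0.65) more than 94.1% of 357. Cct2 (0.31) and Cct3 (0.32) varied more than 36.4% of 475 and 39.5% of 574.

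**Figure D3:**
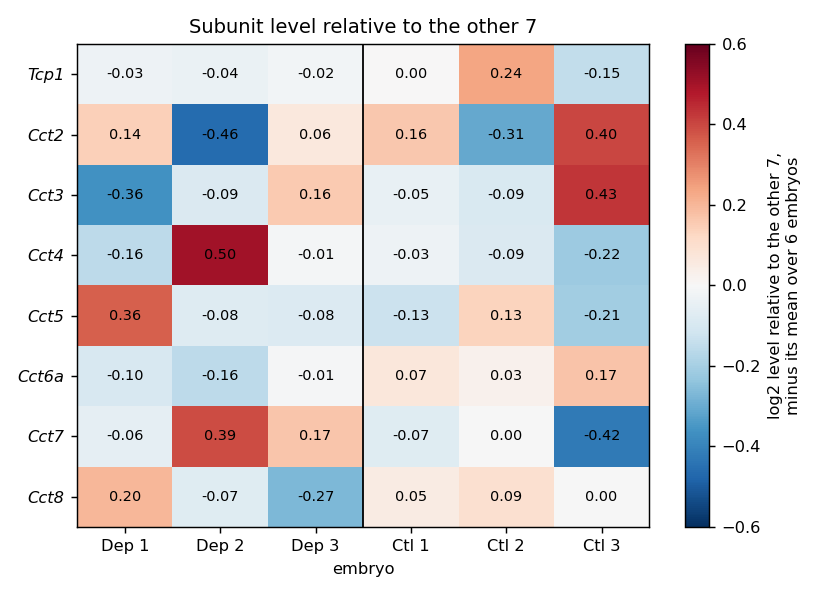
Log2 level of each subunit (rows) relative to the mean of the other 7, minus its own mean over the 6 embryos (columns). The strongest colours lie in Dep 2 and Ctl 3, where Cct4 and Cct7 run opposite to Cct2. Values span 0.50 for Cct4 to -0.46 for Cct2, both in Dep 2.

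Prefoldin, the hexamer that hands nascent actin and tubulin to CCT, did not follow the same order. Of its 6 genes, 0 passed the test in either direction, with a median log2 fold of -0.06, and 2 had a higher mean log2 level in Dep. Pfdn1 had 6783, 2719 and 2490.1 normalized counts in Dep 1, 2 and 3, and 3790, 2774 and 3118 in Ctl 1, 2 and 3. Vbp1, the prefoldin subunit also known to bind the von Hippel-Lindau protein, had 10437, 6966 and 4913 in Dep, and 14104, 9151 and 5792 in Ctl. Each Dep embryo was below the Ctl embryo of its number. Pfdn2, Pfdn4, Pfdn5 and Pfdn6 had log2 folds between -0.15 and 0.03. Dep 2, the highest embryo for CCT, had a mean log2 level of 11.09 for prefoldin, below Dep 1 (11.80), Ctl 1 (11.65), Ctl 2 (11.13) and Ctl 3 (11.19).

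Phosducin-like proteins bind CCT as cofactors, and 3 of 4 of their genes were in the table. Of these 0 passed, with log2 folds of 0.01 ± 0.30 for Pdcl, 0.25 ± 0.40 for Pdcl3 and 0.20 ± 0.35 for Txndc9 (SE). Pdcl3 had 5594 normalized counts in Dep 1, against 1959 to 3061 in the other embryos. The tubulin cofactors, which assemble the dimer from monomers that CCT has folded, had 0 of 5 past the test. Tbcc had 1023, 1422 and 876 in Dep, and 783, 999 and 545 in Ctl, and Tbcb had 2865, 1928 and 1271 in Dep, and 1163, 1857 and 1189 in Ctl. For both, each Dep embryo was above the Ctl embryo of its number, with log2 folds of 0.53 ± 0.34 and 0.48 ± 0.35 (SE). Tbca, Tbcd and Tbce had log2 folds of -0.18, 0.05 and 0.07.

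Among the clients, 0 of 13 measured actin and tubulin genes passed, with 10 higher in mean log2 level and a median log2 fold of 0.21. Actg1, the gamma-actin gene, had 64580, 45129 and 39265 normalized counts in Dep, and 43954, 43856 and 31311 in Ctl. Ctl 3 and Dep 3 were again the lowest 2, although the highest was Dep 1. Tubg1, the gamma-tubulin of centrosomes, had 918, 2922 and 676 in Dep, and 553, 1195 and 638 in Ctl. Its Dep 2 value stood apart, as that of Cct4 did. Tubb2a had 142, 1205 and 327 in Dep, and 531, 746 and 710 in Ctl. Its Dep values enclosed all its Ctl values. Tubb4b, a widely expressed beta-tubulin, had 7551, 12311 and 4898 in Dep, and 6498, 6045 and 6303 in Ctl. It too was highest in Dep 2, while its 3 Ctl values lay close together. Tubulin genes are similar in sequence, so the division of reads between them is uncertain.

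Of 8 other clients or partners, 0 passed, with a median log2 fold of 0.06. Cdc20, the activator of the anaphase-promoting complex, had 5712, 5632 and 4412 in Dep, and 4368, 6407 and 3510.0 in Ctl. Mlst8, a subunit of both mTOR complexes that CCT folds, had the largest log2 fold of these, 0.60 ± 0.42 (SE). Fzr1, Vhl, Plk1, Ccne1, Gnb1 and Gnb2 lay between -0.23 and 0.16. None of these lists had a gene whose groups did not overlap, against 6.90% of all genes.

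Other chaperonin genes gave no call either. Cct6b, the paralogue of Cct6a known from testis, had 2070.0, 1037 and 634 in Dep, and 1606, 829 and 546 in Ctl. Its highest embryos were those numbered 1, unlike Cct6a. Hspd1 and Hspe1, the mitochondrial chaperonin and its lid, had log2 folds of 0.02 ± 0.30 and 0.10 ± 0.35 (SE). Mkks and Bbs10, chaperonin-like genes of the complex that assembles the BBSome, had 0.01 ± 0.34 and 0.88 ± 0.99, the second at 11.7 to 126 normalized counts. Of the heat shock factor genes, Hsf1 had 460, 1058 and 1089.6 in Dep, and 402, 616 and 809 in Ctl, and Hsf2 had a log2 fold of -0.20 ± 0.46.

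**Figure D4:**
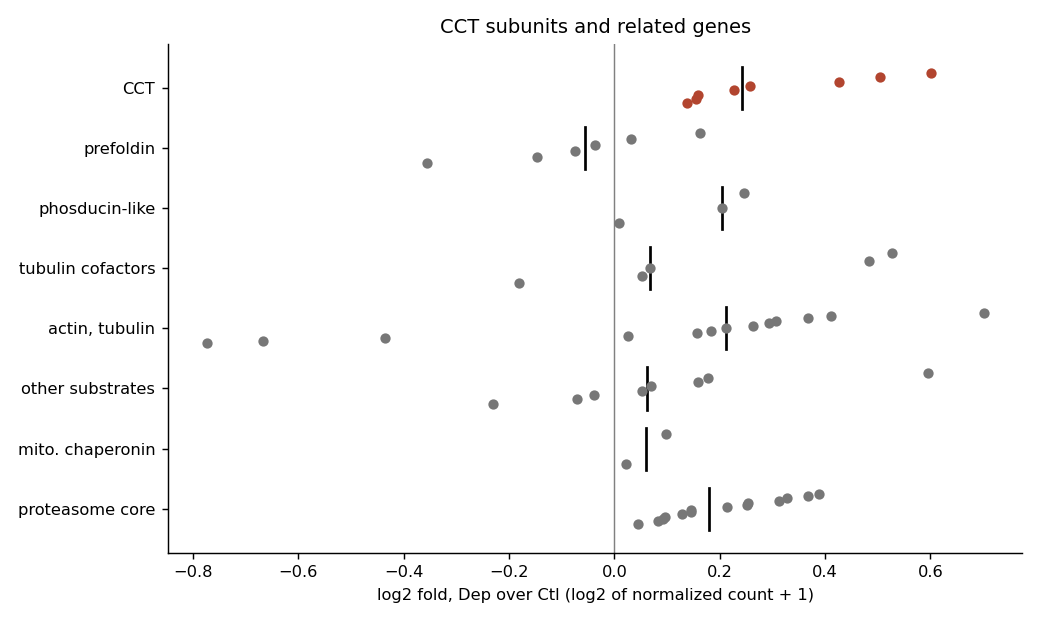
Log2 folds of Dep over Ctl (x axis) for the CCT subunits (red) and genes of related lists (grey), each point a gene and each black line the median of its list. The 8 subunits lie between 0.14 and 0.60, and those of prefoldin lie between -0.36 and 0.16, none past the test.

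The core of the proteasome, another complex of fixed composition, varied over the embryos in a similar range. The mean log2 level of its 14 measured genes differed by 1.22 between the highest embryo (Dep 2) and the lowest (Dep 3), beside 1.30 for CCT (Dep 2 and Ctl 3). The SD of a subunit relative to the others had a median of 0.17 in the proteasome core, 0.23 in CCT and 0.21 in prefoldin. Whether these differ was not tested. Dep 2 was the highest embryo for 8 of the 14 genes, and Ctl 3 and Dep 3 were the lowest 2 for all 14. Of the 14 genes 0 passed, with a median log2 fold of 0.18, and 14 of 14 had a higher mean log2 level in Dep, as 8 of 8 CCT subunits had. Each Dep embryo was above the Ctl embryo of its number for 3 of the 14. Psmb1, Psmb6, Psmb3 and Psmb7, those of smallest p, had log2 folds of 0.39, 0.37, 0.33 and 0.31.

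The genes whose pattern over the 6 embryos lay closest to the mean of the CCT subunits were Mdh2, Eif4a1, Hspa4, Hat1 and Ssr2. They were picked from 5905 genes with a mean of at least 500 normalized counts by the root mean square distance of centred log2 levels, which ran from 0.056 for Mdh2 to 0.093 for Ssr2. The subunits themselves lay between 0.107 (Cct6a) and 0.294 (Cct2) from the mean of the other 7. Mdh2, the malate dehydrogenase of mitochondria, had 12663, 16104 and 7592 in Dep, and 10135, 11386 and 6040.3 in Ctl. Hspa4, a chaperone of the Hsp110 family, had 3578, 4678 and 2065 in Dep, and 2832, 2804 and 1777 in Ctl. Eif4a1 encodes a helicase of translation initiation, Hat1 a histone acetyltransferase and Ssr2 a subunit of the translocon-associated complex. With 6 embryos, such likeness is a description and carries no test.

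Neighbouring genes were compared because several subunits start beside a gene on the other strand. Those on the opposite strand that start within 1 kb were Mrpl18 beside Tcp1, Tsacc beside Cct3, Fam173b beside Cct5, Psph beside Cct6a and Pradc1 beside Cct7, and B130034C11Rik beside Cct8, which was not in the table. Usp16 shares exonic bases with Cct8. Of these 6 measured neighbours, 1 (Fam173b) was highest in Dep 2, and 0 passed the test. Mrpl18, a mitochondrial ribosomal protein gene, had 9681, 6610 and 5767 in Dep, and 8630.3, 6509 and 7002 in Ctl, while Tcp1 was highest in Dep 2. Exons of Tcp1, Cct6a, Cct7 and Cct8 overlap other annotated genes, and the library kit does not mark strand, so reads there cannot be told apart. The overlapping genes include Acat3 and Gm26130 at Tcp1 and Snora15 at Cct6a, which were not in the table. The processed pseudogenes Tcp1-ps1 and Cct3-ps1 are annotated but not listed in the table, and how reads were divided between them and their parents is unknown.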

How the data were processed

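Messenger RNA of 6 single blastocysts, 3 per group, was sequenced. Per the labels' protocols, lysed embryos were reverse transcribed with a SMART-Seq v4 kit, whose libraries carry no strand mark. Without giving roles, the submitters' processing notes list mm10, Cufflinks 2.2.1 and HISAT2, and what counted the reads is not given in the sources used here. Each deposited value is a signal. Judged from the values, it equals whole reads (a count) over a size factor that is constant within a library. Per the file headers the table also holds a mean, a log2 fold with its standard error, a score (test statistic) and raw and adjusted p-value columns. Of these only the mean was used, for its lowest value. Dividing by the step of each column gave whole reads for 100% of values, within 0.01. The Dep 2 step, 0.993, is close to 1 but met the same check. In each column the search for the step began by taking the smallest value above 0 as 1 read, which is an assumption. No gene of the table has a mean under 14.2. Of 12149 identifiers, 11829 matched GENCODE M21.

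limma 3.58.1 with a mean-variance trend was fitted to log2(normalized count + 1) over all genes. edgeR 4.0.16 and DESeq2 1.42.0 (R 4.3.3) ran on recovered reads. The fit was also run on simulated data, whose call rates are not given here, so the smallest change it can call is not stated. Per-length levels used exon unions, with transcript lengths as alternatives. Named genes were the subunits, every measured gene of a list of up to 8, the 4 of smallest p from longer lists, neighbours on the other strand within 1 kb or with shared exonic bases, and 5 genes of like pattern. The members and lists were chosen with earlier results of these data known. Same-numbered embryos had deviations from their group means that correlated with r = 0.133, 0.151 and 0.129 across genes. Embryos of unlike number had r between -0.158 and 0.044. Deviations cancel out within a group, so these correlations are not independent of each other. Each same-numbered value exceeded 0.1, so same-numbered embryos were also compared as pairs, while the main test used no pairing. The labels state no pairing. The correlations are weak and come from these same values, so they cannot establish that the numbers mark pairs. Libraries of a group differed by far more than sampling noise (chi-square per degree of freedom of 89.7 or more), so none was treated as a duplicate.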

Additional observations from a re-analysis of the deposited data

How the results depend on the processing

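Across 11 other settings with all 6 embryos (pseudocounts of 0.1 and 10, TMM, quantile and reads-per-million scaling, a minimum mean of 100, no trend, library weights, edgeR, DESeq2 and the replicate number as a block), no subunit passed the test and no log2 fold of a subunit changed sign. The median log2 fold of the 8 ran from 0.18 with quantile normalization to 0.31 with library weights. DESeq2 called 1 gene (Ly6a) where limma called 0, and the count of genes of related lists that passed was 0 in all settings. The replicate block left the median at 0.24, and it changed no call.

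Leaving out each embryo in turn gave medians from 0.04 to 0.59, and log2 folds from -0.066 to 0.55 for Tcp1, 0.013 to 0.39 for Cct2, -0.12 to 0.32 for Cct3, 0.08 to 0.86 for Cct4, 0.12 to 0.79 for Cct5, -0.067 to 0.42 for Cct6a, 0.24 to 0.90 for Cct7 and -0.040 to 0.62 for Cct8, with no subunit past the test. Leaving out both Dep 2 and Ctl 3 was chosen from the CCT levels themselves, as the highest embryo and the lowest, so it could only lower the folds and supports nothing. Log2 folds were then -0.31 for Tcp1, -0.035 for Cct2, -0.22 for Cct3, -0.21 for Cct4, -0.069 for Cct5, -0.28 for Cct6a, -0.11 for Cct7 and -0.28 for Cct8, with a median of -0.22. The difference in the share of Cct6a was -1.30 points with the longest transcript as length, -1.16 with the longest spliced one, and from -1.65 to -0.96 with an embryo left out. The subunits had 3606 or more normalized counts in each library, so the spread between 3 embryos per group, more than depth, sets the precision.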
